A study of Mus musculus with 10 samples.

Results

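The genes described here are 30 genes of amino acid breakdown, transamination and the urea cycle, taken by symbol from a table of 24475 genes measured in mouse pancreatic islets. All 30 symbols were in the table. Islets came from C57BL/6 mice that had received either REGN1193, a glucagon receptor (GCGR) blocking antibody, or an isotype control antibody, and each group had 5 libraries, numbered 1 to 5 for the GCGR antibody and 6 to 10 for the isotype control. The labels give no dose, duration, age or sex, and they do not say whether a library holds 1 animal or a pool, so p-values measure the spread between these libraries. Levels are in RPKM, reads per kilobase of transcript and megaread mapped, which can be compared between genes. The estimated depth was 14.6 to 18 megareads in the antibody libraries and 12.3 to 14.8 megareads in the isotype libraries, so that 0.5 RPKM of a 2 kb transcript rests on 12.3 to 18 reads.

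Amino acids are broken down by removal of the amino group and oxidation of the carbon skeleton. In the liver, glucagon promotes amino acid uptake and ureagenesis, and blockade of its receptor raises circulating amino acids, and amino acids stimulate alpha cells. Islets use glutamate dehydrogenase and the transaminases in nutrient sensing, while the full urea cycle is a liver pathway.

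No member passed the threshold between the antibody and isotype libraries. Of the 30 members, 22 averaged 0.5 RPKM or more across the 10 libraries and were tested with limma on log2(RPKM + 0.5), and 0 of the 22 had a Benjamini-Hochberg adjusted p under 0.05, beside 0.409% of all 13450 tested genes. At an unadjusted limma p under 0.05 there were 3, Arg1 with a positive and Gls2 and Dbt with negative log2 fold changes, a share of 13.6% beside 7.02% of all tested genes. The median log2 fold change (antibody minus isotype) was -0.08 over the 22 members and -0.07 over all tested genes, and 14 of the 22 (63.6%) lay below 0, beside 66.5% of all tested genes. After median centring 11 of the 22 (50%) lay below 0, beside 46.8% of all tested genes. In the exact permutation test of single values, which needs no filter, 5 of the 29 members with any value above 0 had an unadjusted p under 0.05 (Arg1, Gls2, Dbt, Prodh and Gldc), beside 6.39% of 19832 such genes. The number was 2 without antibody library 2 or 3 or isotype library 9 or 10, and 1 without antibody library 5 and isotype library 10 together. That test cannot give a p under 0.00794 with 5 against 5 libraries.

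**Figure D1:**
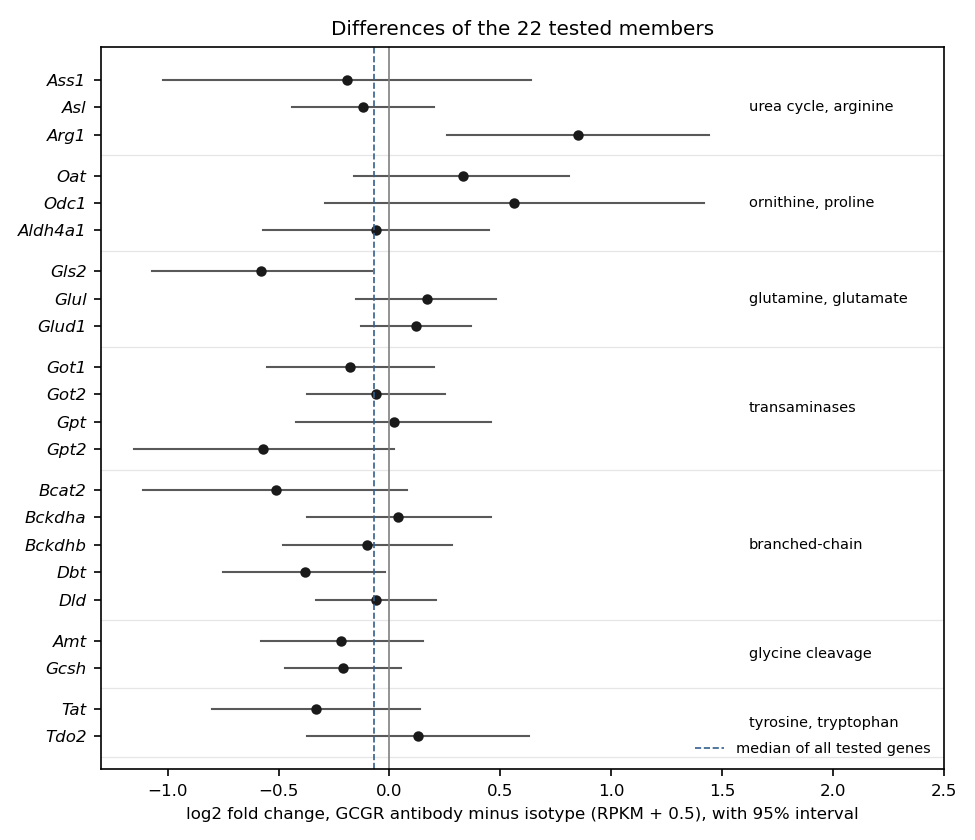
Log2 fold change (horizontal axis, GCGR antibody minus isotype on log2(RPKM + 0.5)) of the 22 tested members, grouped by role, with limma's 95% interval as a line and the median of all 13450 tested genes as a dashed line. The interval lies wholly above 0 for Arg1, from 0.26 to 1.44, and wholly below 0 for Gls2 and Dbt, while no adjusted p passed.

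The cell types of the samples are given here once, since in bulk RNA fewer cells of a type and less RNA per cell cannot be told apart. Islet hormone genes were present in every library. The summed level of 11 alpha cell markers was 55164 to 84271 RPKM in the antibody libraries and 10187 to 18177 RPKM in the isotype libraries. All 10 tested alpha markers had log2 fold changes above 0, and 8 of them were called higher by limma. The 11 beta cell markers summed to 198865 to 356305 RPKM and 298363 to 472105 RPKM, with 0 called by limma and 0 of 11 log2 fold changes above 0. The 4 delta cell markers summed to 3701 to 9711 RPKM and 2047 to 4969 RPKM, and 2 markers of PP cells to 4111 to 12901 RPKM and 3173 to 6339 RPKM, with all 6 log2 fold changes above 0 and 0 called. The ranges of the beta, delta and PP sums overlapped between groups. The unadjusted exact permutation p was 0.00794 for the alpha sum, 0.0476 for beta, 0.0397 for delta and 0.0556 for PP. The 14 acinar markers summed to 4138 to 13183 RPKM and 3187 to 18298 RPKM, the 9 ductal markers to 319 to 1110 RPKM and 346 to 606 RPKM, and the 9 macrophage markers to 84.4 to 752 RPKM and 118 to 630 RPKM. None of these markers was listed at 0 in all libraries. The 7 hepatocyte markers summed to 13 to 15.8 RPKM and 3.88 to 15.6 RPKM, mostly from Apoa2, and Alb, albumin, did not exceed 4.11 RPKM in any library. For the acinar, ductal, macrophage and hepatocyte sums the unadjusted exact permutation p was 0.246, 0.357, 0.778 and 0.0317.

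The levels spanned from nothing detected to above 100 RPKM. In the isotype libraries 1 member had a mean of at least 100 RPKM, 12 were between 10 and 100 RPKM, 8 between 1 and 10 RPKM and 9 under 1 RPKM. The highest was Glul, glutamine synthetase, at 115 ± 23.0 RPKM (SD, n = 5), followed by Odc1, the first enzyme of polyamine synthesis, at 70.8 ± 24.5 RPKM (SD, n = 5). Next came Glud1, glutamate dehydrogenase, at 43.6 ± 4.29 RPKM, Dld, a dehydrogenase shared by several complexes, at 43.2 ± 6.99 RPKM, Got2, mitochondrial aspartate aminotransferase, at 35.7 ± 6.21 RPKM, and Arg1, cytosolic arginase, at 32.0 ± 10.2 RPKM (SD, n = 5 each). Glud1 and Dld, and likewise Got2 and Arg1, differed by less than their SDs. Tat, tyrosine aminotransferase, known as a liver enzyme, stood at 14.1 ± 3.06 RPKM (SD, n = 5), above 82.1% of all genes in the table.

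**Figure D2:**
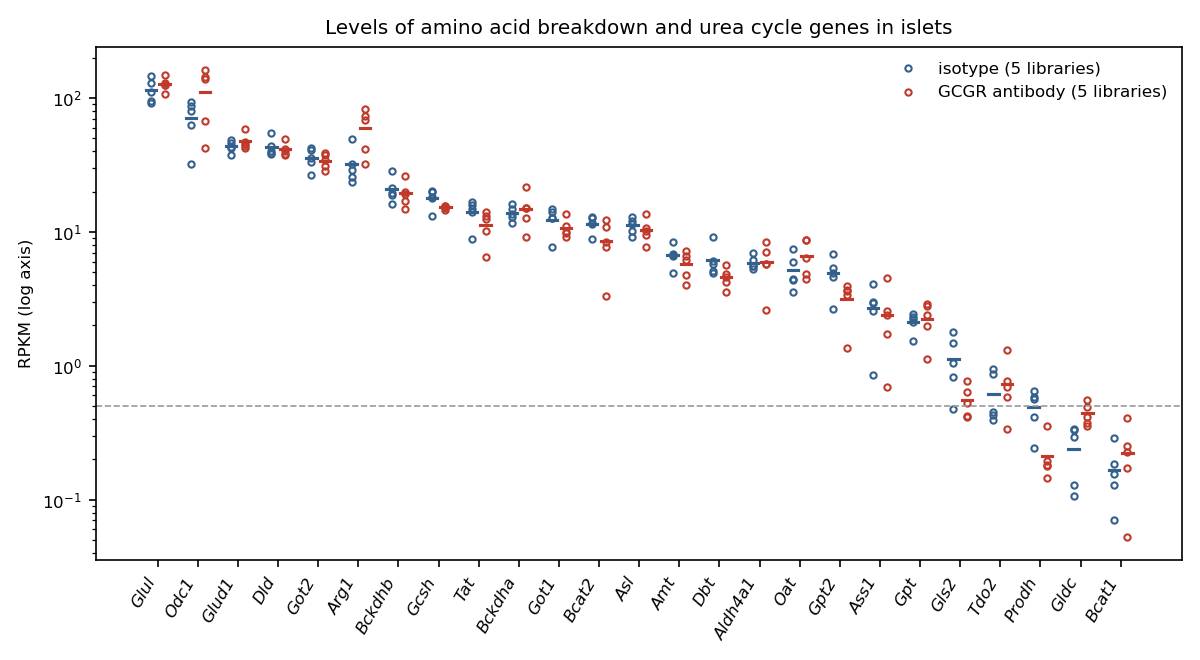
RPKM on a log axis of the 25 members with a value above 0 in every library, ordered by isotype mean, with 1 circle per library, a bar at the group mean and a dashed line at 0.5 RPKM. Circles of the groups overlap for every gene shown but Gldc.

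Transcripts of the later urea cycle steps were measured, for Ass1 on an uncertain number of reads, and those of the first steps were at or near 0. Cps1, carbamoyl phosphate synthetase, which brings ammonia into the cycle, did not exceed 0.0279 RPKM in any library, an estimated 1.98 reads, and Otc, ornithine transcarbamylase, did not exceed 0.0593 RPKM, an estimated 2.04 reads. Ass1 and Asl, which together make arginine from citrulline and aspartate, had values above 0 in every library. Ass1, argininosuccinate synthase, was at 4.49, 2.57, 2.39, 1.73 and 0.698 RPKM in antibody libraries 1 to 5 and at 2.99, 4.08, 0.853, 2.55 and 2.95 RPKM in isotype libraries 6 to 10. The groups overlapped across nearly their whole range (log2 fold change -0.19, limma adjusted p = 0.952, SE 0.38). Over a transcript of 1696 bases, the Ass1 values correspond to an estimated 21.3 to 128 reads per library. These estimates lie near whole multiples of the lowest in every library, so Ass1 may rest on far fewer reads. The number of reads behind Ass1 is thus not known. Asl, argininosuccinate lyase, was steadier, at 10.3 ± 2.11 RPKM with the GCGR antibody and 11.2 ± 1.54 RPKM in the isotype group (SD, n = 5 each). The groups overlapped, and the log2 fold change was -0.12 with a 95% interval from -0.44 to 0.20. Nags, which makes the activator of Cps1 and is no member, did not exceed 0.254 RPKM.

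Arg1, which splits arginine into urea and ornithine, had the smallest p of the tested members. In GRCm38.p6 it lies on chromosome 10 from 24915207 to 24927470 (Entrez 11846). It was at 73.1, 82.6, 68.3, 41.7 and 32.4 RPKM in antibody libraries 1 to 5 and at 29.2, 31.9, 49.3, 25.9 and 23.6 RPKM in isotype libraries 6 to 10. Antibody libraries 1, 2 and 3 lay above all isotype libraries, whereas antibody libraries 4 and 5 lay below isotype library 8. The log2 fold change was 0.85 (SE 0.27, 95% interval 0.26 to 1.44), a 1.81-fold difference, with an exact permutation p of 0.0397 and a limma adjusted p of 0.418. With array weights, which give each library its own weight, it was 1.05 (limma adjusted p = 0.0313), and with 1 library left out it ranged from 0.71 to 1.05. With array weights 1.35% of all tested genes were called. Arg2, the mitochondrial arginase, did not exceed 0.341 RPKM in any library, an estimated 6.00 reads, so the arginase transcript of these islets was almost wholly Arg1.

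Several marker sums varied beside Arg1, and not in the same way in both groups. Alpha cell markers were higher in all 5 antibody libraries, including libraries 4 and 5, where Arg1 was lowest of its group. Among the antibody libraries, the 3 with the highest Arg1 also had the lowest acinar sums (4138, 4523 and 4242 RPKM against 8720 and 13183 RPKM) and the highest ductal sums (643, 933 and 1110 RPKM against 398 and 319 RPKM). In the isotype group the order was another: library 8, highest in Arg1, had the highest acinar sum (18298 RPKM), and library 10, lowest in Arg1, the highest ductal sum (606 RPKM). Macrophage markers were highest in antibody library 2 (752 RPKM) and isotype library 8 (630 RPKM), the libraries with the highest Arg1 of their groups. The sum of 8 mesenchymal markers was also highest in these libraries, at 177 RPKM and 168 RPKM, and stood at 72.7 and 73.5 RPKM in antibody libraries 1 and 3 against 14.9 and 30.2 RPKM in libraries 4 and 5. With the acinar level as a covariate the log2 fold change of Arg1 was 0.73 (limma adjusted p = 0.441), and with the ductal level it was 0.86 (limma adjusted p = 0.331). The part of alpha, macrophage and mesenchymal cells in the Arg1 level was not tested.

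Ornithine, the product of arginase, goes to glutamate and proline through Oat, ornithine aminotransferase, or to polyamines through Odc1, ornithine decarboxylase. Odc1 was at 139, 161, 144, 42.4 and 66.8 RPKM in antibody libraries 1 to 5 and at 31.9, 93.2, 63.0, 79.5 and 86.5 RPKM in isotype libraries 6 to 10. As with Arg1, antibody libraries 1, 2 and 3 lay above all isotype libraries, and libraries 4 and 5 lay within the isotype range. The log2 fold change of 0.56 (limma adjusted p = 0.845, SE 0.39) was no larger than the spread between libraries, and it ranged from 0.30 without isotype replicate 6 to 0.86 without antibody replicate 4.

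Oat was at 8.67, 8.75, 6.37, 4.47 and 4.86 RPKM with the GCGR antibody and at 3.54, 4.38, 6.00, 4.45 and 7.39 RPKM with the isotype control. Libraries 4 and 5 were again the lowest of the antibody group, and the groups overlapped (log2 fold change 0.33, limma adjusted p = 0.845, SE 0.22). Isotype library 10 had the highest Oat of its group and the lowest Arg1, so the genes did not keep 1 order across the isotype libraries.

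**Figure D3:**
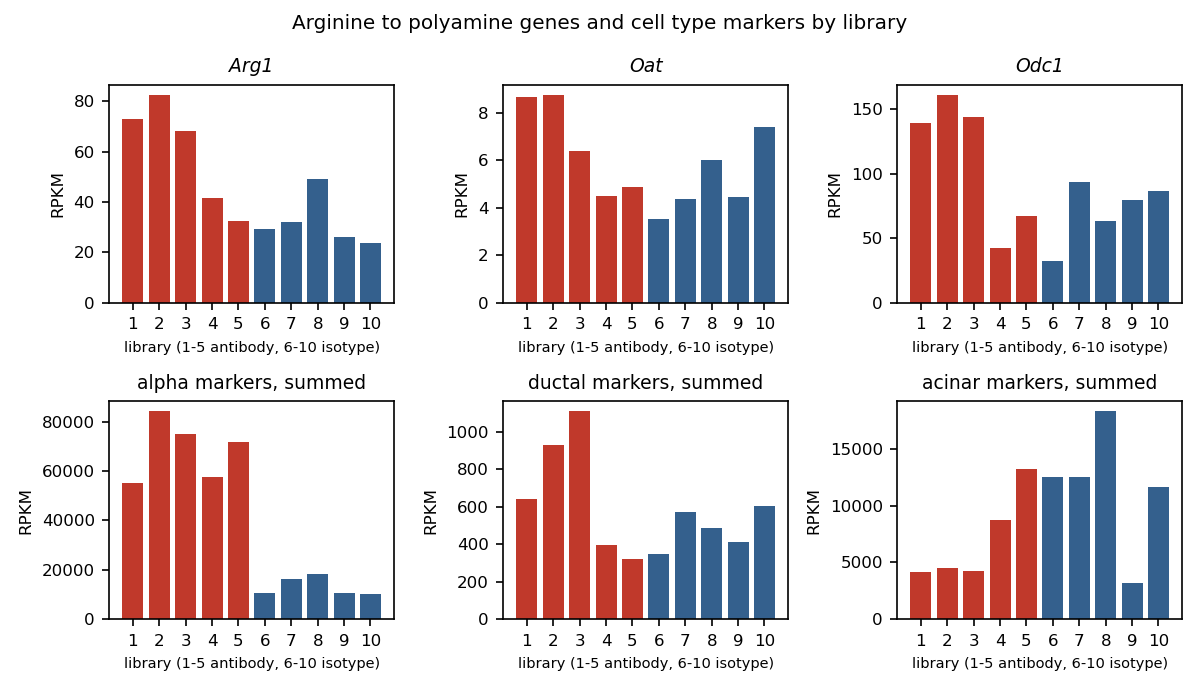
RPKM (vertical axes, starting at 0) of Arg1, Oat and Odc1 and of summed alpha, ductal and acinar markers in each library, with libraries 1 to 5 (red) from the GCGR antibody group and 6 to 10 (blue) from the isotype group. Antibody libraries 1 to 3 stand above libraries 4 and 5 in Arg1, Oat, Odc1 and the ductal sum and below them in the acinar sum.

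The promoter window of Odc1 is shown for its transcript's spread among antibody libraries, with those of Gldc and Prodh, the members with the smallest exact permutation p. Each sequence is the RefSeq window (GRCm38.p6) from 250 bases before to 50 after the annotated start, 5′ to 3′ on the gene's strand. Odc1 is chr12:17544623-17544922 on the plus strand, Gldc chr19:30175392-30175691 and Prodh chr16:18089141-18089440 on the minus strand. Capitals mark matches on either strand to the CCAAT box, the GC box (written GGGCGG), the E-box (written CACGTG), the TATA box (written TATAAA), the cAMP response element (written TGACGTCA) or its core (written TGACG), which lies within the full element.
Odc1: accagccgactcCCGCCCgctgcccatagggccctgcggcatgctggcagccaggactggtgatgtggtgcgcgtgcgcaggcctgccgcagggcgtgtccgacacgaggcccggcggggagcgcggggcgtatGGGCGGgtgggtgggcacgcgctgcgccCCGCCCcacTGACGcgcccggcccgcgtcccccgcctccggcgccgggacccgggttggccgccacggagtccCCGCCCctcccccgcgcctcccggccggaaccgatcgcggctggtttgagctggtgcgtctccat
Gldc: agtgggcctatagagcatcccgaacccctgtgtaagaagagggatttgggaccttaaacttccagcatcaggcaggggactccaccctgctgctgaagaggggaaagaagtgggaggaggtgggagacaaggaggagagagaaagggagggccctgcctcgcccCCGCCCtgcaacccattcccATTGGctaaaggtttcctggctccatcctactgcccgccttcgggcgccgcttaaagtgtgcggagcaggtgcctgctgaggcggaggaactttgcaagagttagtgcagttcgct
Prodh: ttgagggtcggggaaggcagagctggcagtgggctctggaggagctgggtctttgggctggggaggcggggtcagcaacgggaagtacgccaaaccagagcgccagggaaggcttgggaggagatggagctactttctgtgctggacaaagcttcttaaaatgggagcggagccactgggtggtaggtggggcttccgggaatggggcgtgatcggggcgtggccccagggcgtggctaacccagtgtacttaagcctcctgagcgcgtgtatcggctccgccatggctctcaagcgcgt

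The Odc1 window held 4 GC boxes and 1 TGACG, the Gldc window 1 GC box and 1 CCAAT, and the Prodh window none of these letters. Of 32851 RefSeq windows of this length, 35.7% held a GC box, 37.4% CCAAT, 20.8% TGACG, 13.6% TATAAA, 7.15% CACGTG and 1.79% the full cAMP response element. Windows were found for 22 of the 30 members, of which 0 held TGACGTCA, 3 held TGACG (Dld, Oat and Odc1) and 1 held CACGTG (Ass1). A match is a run of letters and no measured binding site, and no match says only that these letters are not in the window.

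Proline breakdown starts with Prodh, proline dehydrogenase, and ends with Aldh4a1, which yields glutamate. Prodh was at 0.181, 0.355, 0.193, 0.179 and 0.145 RPKM with the GCGR antibody and at 0.241, 0.565, 0.649, 0.411 and 0.579 RPKM with the isotype control. All antibody libraries but library 2 lay below all isotype libraries, on an estimated 6.21 to 22.9 reads per library. The mean log2 difference was -0.47 (exact permutation p = 0.0159). The gene fell under the filter on low values. Without that filter limma gave an adjusted p of 0.316. Aldh4a1 was at 5.95 ± 2.17 RPKM and 5.88 ± 0.674 RPKM (SD, n = 5 each), with a log2 fold change of -0.06 (95% interval -0.57 to 0.45). Its lowest value, 2.61 RPKM, was in antibody library 5.

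Of the members that make or use glutamate, the abundant Glul and Glud1 were level between groups. Glul, which joins ammonia to glutamate, was at 127 ± 14.3 RPKM with the GCGR antibody and 115 ± 23.0 RPKM in the isotype group (SD, n = 5 each), with a 95% interval of the log2 fold change from -0.15 to 0.48. Glud1, whose enzyme is activated by leucine and whose activating mutations cause hyperinsulinism, was at 47.4 ± 6.29 RPKM and 43.6 ± 4.29 RPKM (SD, n = 5 each; interval -0.13 to 0.37). For both genes the intervals leave out a 1.5-fold difference.

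Gls2, a glutaminase, was low and overlapped between groups. It was at 0.422, 0.412, 0.529, 0.631 and 0.765 RPKM in antibody libraries 1 to 5 and at 0.479, 1.05, 0.821, 1.47 and 1.80 RPKM in isotype libraries 6 to 10. Isotype library 6 lay within the antibody range, and the other isotype libraries lay above it. The log2 fold change was -0.58 (SE 0.23), with an exact permutation p of 0.0476 and a limma adjusted p of 0.632, on an estimated 15.6 to 59.4 reads per library.

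The transaminases pass amino groups between amino acids and 2-oxoacids. Got1 and Got2, the cytosolic and mitochondrial aspartate aminotransferases of the malate-aspartate shuttle, had log2 fold changes of -0.18 (SE 0.17) and -0.06 (SE 0.14). Gpt, the cytosolic alanine aminotransferase, was at 2.24 ± 0.718 RPKM and 2.13 ± 0.362 RPKM (SD, n = 5 each). Gpt2, the mitochondrial form, was at 3.91, 3.35, 3.66, 3.61 and 1.35 RPKM in antibody libraries 1 to 5 and at 2.67, 4.57, 4.97, 5.37 and 6.89 RPKM in isotype libraries 6 to 10. All antibody libraries lay below isotype libraries 7 to 10, and library 5 below library 6 as well. The log2 fold change of Gpt2 was -0.57 (limma adjusted p = 0.720, SE 0.27), and -0.34 without antibody replicate 5.

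The cytosolic and mitochondrial forms of 4 enzymes were also compared as within-library log2 ratios of RPKM + 0.5, and no pair passed after adjustment. The log2 ratio of Gpt to Gpt2 was -0.41 ± 0.18 with the GCGR antibody and -1.0 ± 0.47 in the isotype group (SD, n = 5 each), a difference of 0.59 (exact permutation p = 0.0397, adjusted over 4 pairs 0.0952). All antibody libraries lay between -0.64 and -0.18, above 4 isotype libraries (-1.40 to -0.99), while isotype library 6 stood at -0.21. Without isotype replicate 6 the difference was 0.79 (adjusted exact permutation p = 0.0317).

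For Arg1 over Arg2 the difference was 0.78 (exact permutation p = 0.0714, adjusted 0.0952), for Bcat1 over Bcat2 it was 0.62 (0.0635, adjusted 0.0952), and for Got1 over Got2 it was -0.12 (0.468). Arg2 and Bcat1 were below the added 0.5 RPKM in every library, so their ratios mainly follow Arg1 and Bcat2. Bcat1 over Bcat2 reached -2.35 in antibody library 5, against -4.24 to -3.29 in the other antibody libraries, and without antibody replicate 1 its difference was 0.79 (adjusted exact permutation p = 0.0317).

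**Figure D4:**
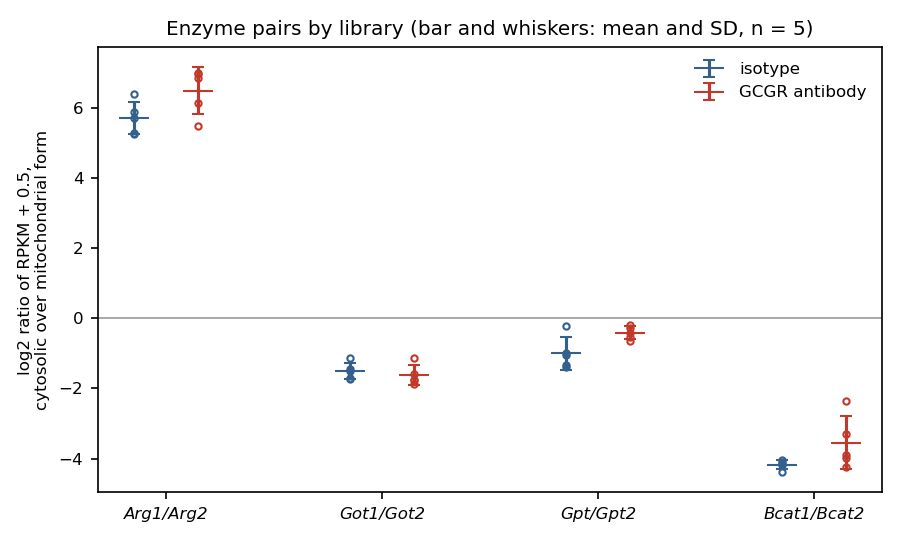
Log2 ratio of RPKM + 0.5 of the cytosolic over the mitochondrial form (vertical axis) for 4 enzyme pairs, with 1 circle per library and the mean and SD of each group of 5. Gpt over Gpt2 is higher in all 5 antibody libraries than in 4 of the 5 isotype libraries.

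Branched-chain amino acids are first transaminated by Bcat1 or Bcat2 and then oxidised by a mitochondrial complex built from Bckdha, Bckdhb, Dbt and Dld. Bcat2, the mitochondrial form, was at 12.2, 8.37, 10.9, 7.75 and 3.34 RPKM in antibody libraries 1 to 5 and at 8.79, 11.7, 11.5, 12.6 and 12.9 RPKM in isotype libraries 6 to 10. Antibody library 5 was by far the lowest, and antibody libraries 1 and 3 lay within the isotype range. The log2 fold change was -0.51 (limma adjusted p = 0.766, SE 0.27), and -0.23 without antibody replicate 5. Bcat1 did not exceed 0.406 RPKM.

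Dbt, the acyltransferase core of the complex, was at 5.67, 4.19, 3.56, 4.88 and 4.57 RPKM with the GCGR antibody and at 6.11, 4.94, 5.13, 5.74 and 9.08 RPKM with the isotype control. Antibody library 1 lay within the isotype range, and the other 4 lay below it. The log2 fold change was -0.38 (SE 0.17, exact permutation p = 0.0397, limma adjusted p = 0.683), and -0.25 without isotype replicate 10, which held the highest value.

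The dehydrogenase subunits were level. Bckdha was at 14.7 ± 4.59 RPKM and 13.8 ± 1.76 RPKM, Bckdhb at 19.5 ± 4.31 RPKM and 20.9 ± 4.77 RPKM, and Dld at 41.3 ± 4.76 RPKM and 43.2 ± 6.99 RPKM, antibody first (SD, n = 5 each). Their log2 fold changes were 0.04 (95% interval -0.37 to 0.46), -0.10 (-0.48 to 0.28) and -0.06 (-0.33 to 0.21). The kinase and the phosphatase that switch the complex off and on, Bckdk and Ppm1k, had log2 fold changes of -0.12 (SE 0.11) and -0.09 (SE 0.14), neither past the threshold (limma adjusted p = 0.870 and 0.933). Bckdk and Ppm1k were picked for their role after the values had been seen.

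The glycine cleavage system splits glycine with Gldc, the decarboxylase, Amt, the aminomethyltransferase, the carrier Gcsh, and Dld. Gldc was at 0.375, 0.357, 0.416, 0.559 and 0.495 RPKM in antibody libraries 1 to 5 and at 0.291, 0.128, 0.107, 0.337 and 0.329 RPKM in isotype libraries 6 to 10. All 5 antibody values exceeded all 5 isotype values, which was so for 1 of the 30 members, for 0 of the 22 tested members beside 1.99% of tested genes, and for 1.73% of the genes with any value above 0. The mean log2 difference was 0.36 (exact permutation p = 0.00794, the smallest possible). Gldc fell under the filter on low values, and without that filter its limma adjusted p was 0.447. The values rest on an estimated 19.8 to 33.5 reads per antibody library and 5.92 to 18.8 reads per isotype library, and the gap between antibody library 2 (0.357 RPKM) and isotype library 9 (0.337 RPKM) is narrow.

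Gcsh was at 15.6, 15.2, 15.3, 15.5 and 14.6 RPKM with the GCGR antibody and at 20, 13.1, 20.2, 18 and 18.1 RPKM with the isotype control. Isotype library 7 lay below the antibody libraries and the other isotype libraries above them, with a log2 fold change of -0.21 (limma adjusted p = 0.776, SE 0.12). Amt was at 5.74 ± 1.30 RPKM and 6.70 ± 1.21 RPKM (SD, n = 5 each), a log2 fold change of -0.22 (SE 0.17). At the transcript level Gldc was thus the scarcest part of the system, at 0.440 ± 0.0851 RPKM and 0.238 ± 0.112 RPKM (SD, n = 5 each).

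**Figure D5:**
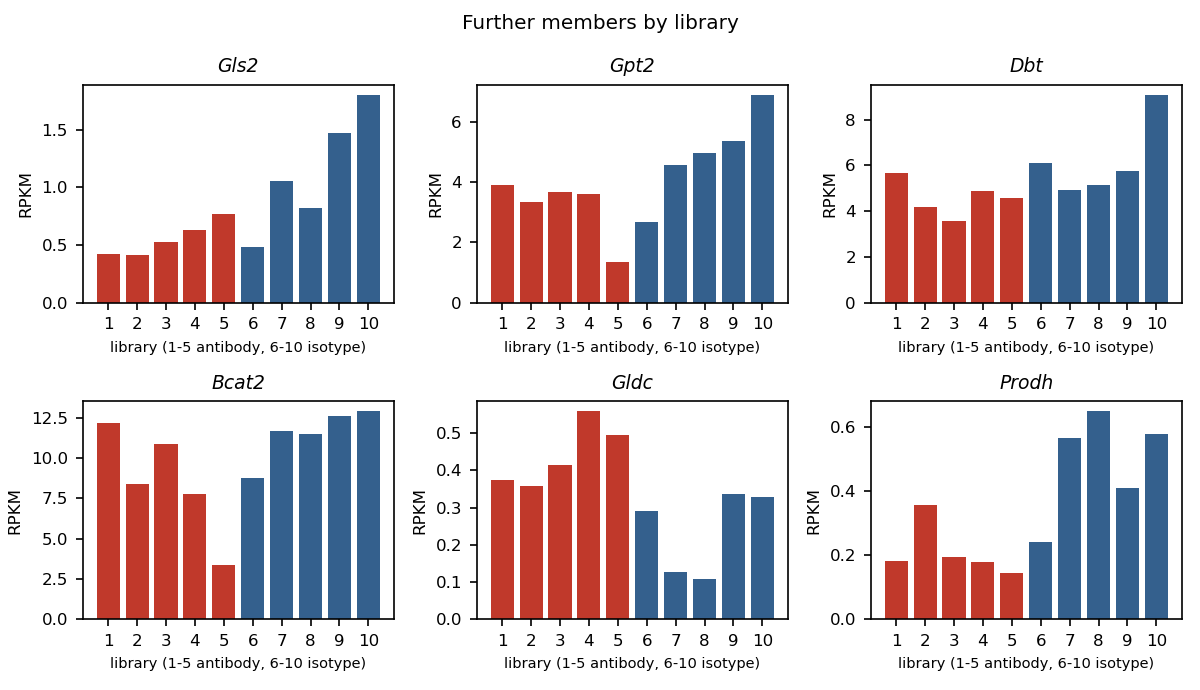
RPKM (vertical axes, starting at 0) of Gls2, Gpt2, Dbt, Bcat2, Gldc and Prodh in each library, with libraries 1 to 5 (red) from the GCGR antibody group and 6 to 10 (blue) from the isotype group. The groups are apart only for Gldc, and antibody library 5 is the lowest of all for Gpt2 (1.35 RPKM) and Bcat2 (3.34 RPKM).

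Of the enzymes that start the breakdown of tyrosine, tryptophan, histidine and serine in the liver, Tat was clearly measured. It was at 14, 12.4, 13.1, 10.1 and 6.51 RPKM with the GCGR antibody and at 8.88, 16.6, 14.1, 14.9 and 15.9 RPKM with the isotype control. Isotype library 6 lay within the antibody range, and the other isotype libraries lay above it (log2 fold change -0.33, limma adjusted p = 0.832, SE 0.22). The difference was -0.16 without antibody replicate 5. Tdo2, tryptophan dioxygenase, was at 0.734 ± 0.354 RPKM and 0.618 ± 0.265 RPKM (SD, n = 5 each). Hal, histidine ammonia-lyase, did not exceed 0.0981 RPKM, and Sds, serine dehydratase, was listed at 0 in all 10 libraries.

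Several members shared the same extreme library. Antibody library 5 had the lowest value of all 10 libraries in 11 of the 22 tested members (50%), among them Ass1, Asl, Gpt, Gpt2, Bcat2, Bckdha, Bckdhb and Tat, and in 28.4% of all tested genes. Isotype library 10 had the highest value in 7 of the 22 (31.8%), among them Gls2, Gpt2, Bcat2 and Dbt, and in 26.2% of all tested genes. Without both libraries the median log2 fold change was 0.06 over the members and -0.03 over all tested genes. In that setting 40.9% of the members lay below 0, beside 58.6% of all tested genes. No member was called by limma there, and the log2 fold changes of Gpt2 and Bcat2 were -0.21 and -0.19.

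A wider list of amino acid metabolism genes that are no members gave the same count of calls. Of 107 genes matched in the table, 81 were tested and 0 had a limma adjusted p under 0.05, with 12 lower and 0 higher at an unadjusted p under 0.05, a share of 14.8% lower beside 4.18% of all tested genes. The median log2 fold change was -0.14, and 63 of the 81 (77.8%) lay below 0, beside a median of -0.07 and 66.5% over all tested genes. After median centring 6 were lower (7.41%) and 3 higher at an unadjusted limma p under 0.05, beside 2.24% lower of all tested genes, and the medians were -0.06 for the list and 0.01 for all tested genes. By role, 5 of 12 sulfur amino acid genes and 3 of 21 further branched-chain genes were among the 12. The share lower depended on the libraries. With 1 library left out it ranged from 6.25% without isotype library 10 to 18.5% without antibody library 4. All tested genes gave 3.07% and 4.99% there. Without antibody library 5 and isotype library 10 together, the median was -0.03 for the list and for all tested genes. In that setting 60% of the list lay below 0, beside 58.6% of all tested genes.

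The smallest p among the lower genes was that of Amd1, which makes the aminopropyl donor of polyamine synthesis, at 19.7 ± 4.70 RPKM and 29.9 ± 5.10 RPKM (SD, n = 5 each; log2 fold change -0.61, limma adjusted p = 0.319, SE 0.17). It was at 26.0, 20.8, 20.9, 13.4 and 17.2 RPKM in antibody libraries 1 to 5 and at 28.3, 24.5, 26.5, 33.2 and 36.9 RPKM in isotype libraries 6 to 10, where antibody library 1 alone reached the isotype range. Amd1 has a near-identical copy in the mouse genome, so its reads may be divided. Gad1, which makes GABA from glutamate, had a log2 fold change of -0.64 (SE 0.23), Mat2a, which makes S-adenosylmethionine, -0.46 (SE 0.17), and Ddc, aromatic amino acid decarboxylase, -0.37 (SE 0.14). Positive folds were measured for Cdo1, cysteine dioxygenase (0.36, SE 0.18), Mcee, an epimerase of propionate breakdown (0.20, SE 0.11), and Nos1, a nitric oxide synthase (0.35, SE 0.20). None of these passed (limma adjusted p from 0.319 to 0.775).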

How the data were processed

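Polyadenylated RNA of islets from 10 libraries was sequenced, and the authors deposited 1 table of RPKM values per gene. The submitters' processing notes name CASAVA 1.8.2, FastQC and the builds GRCm38 and mm10. How reads were aligned and counted, and with which annotation, is not given in the sources used here, so reads shared by near-identical genes may be divided in an unknown way. The library kit does not mark the strand. The members and lists were chosen with earlier results of these data known.

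Groups come from the sample titles. The test took log2(RPKM + 0.5) with no added scaling, so folds near 0.5 RPKM are understated. The 13450 genes averaging 0.5 RPKM or more were fitted with limma 3.58.1 in R 4.3.3 (variance trend, Benjamini-Hochberg over all tested genes, threshold 0.05), and the step was tested on simulated data. Single values, ratios and the log2 of marker sums were compared by a two-sided exact permutation test over 252 assignments. Depth was estimated from the steps of low RPKM values of 15627 genes with 1 transcript length in GENCODE M21, where 70.0% to 73.6% of values lay within 0.1 of a whole read. Full statistics are given for the 8 tested members with the smallest p, the enzyme pairs and, per direction, the 4 other pathway genes with the smallest p; further genes were chosen after their values were seen. A gene that this rule names is not reported here. No protein table was used here. Coordinates are those of RefSeq in GRCm38.p6. Alternatives covered pseudocounts of 0.1 and 1, filters, scalings, the trimmed mean of log ratios computed directly and without weights (not through a count package), variance models, array weights, acinar and ductal covariates, the exact permutation test per gene and left-out libraries.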

Additional observations from a re-analysis of the deposited data

Results flagged for a closer look

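Among 44 groups of 5 values (22 tested members in each group), Dixon's test at the 95% level marked 2 samples as far from the rest of their group, where chance marks about 1 group in 20. Gpt2 was at 1.35 RPKM in antibody library 5, against 3.35 to 3.91 RPKM in the other antibody libraries. Dbt was at 9.08 RPKM in isotype library 10, against 4.94 to 6.11 RPKM in the other isotype libraries.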

How the results depend on the processing

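In 23 of 24 alternative settings no member was called by limma; with array weights 1 was, Arg1 (1.05). No other pathway gene was called in any. Of the 22 tested members 14 had no log2 fold change of the opposite sign in any setting. Signs turned for Aldh4a1, Got2 and Dld with median centring (0.02 each), Aldh4a1 with quantile normalization (0.01), Aldh4a1 and Bckdhb with array weights (0.08 and 0.05), and Gpt and Tdo2 given the acinar covariate (-0.12 and -0.02). With both antibody replicate 5 and isotype replicate 10 removed they turned for Ass1, Aldh4a1, Bckdhb and Dld (0.15, 0.15, 0.11 and 0.03). With 1 library left out the ranges were -0.47 to 0.09 for Ass1, -0.20 to 0.18 for Aldh4a1, -0.07 to 0.20 for Gpt, -0.11 to 0.19 for Bckdha, -0.21 to 0.02 for Bckdhb, -0.12 to 0.03 for Dld and -0.02 to 0.26 for Tdo2. The cause was not tested.

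Over all genes, 53 were called higher and 2 lower. The number higher was 23 and lower 0 for genes averaging 5 RPKM or more, and 121 and 61 with array weights. Both were 0 with the exact permutation test per gene, which cannot give a p under 0.00794. Lower calls were 1 without a filter, 5 with quantile normalization, 1 without a variance trend, 4 with the acinar and 11 with the ductal covariate, and 5 without both libraries above. With 1 library left out, 31 (without isotype replicate 9) to 50 were higher, and 0 (without antibody replicate 1) to 20 (without isotype replicate 6) lower. The number of members with an exact permutation p under 0.05 ranged from 2 (without antibody replicate 2 or 3, or isotype replicate 9 or 10) to 6, and was 1 without both libraries, where Prodh was at -0.40 (exact permutation p = 0.0571). The number of enzyme pairs past the adjustment ranged from 0 to 1, with the largest differences 0.79 for Gpt over Gpt2 (0.49 to 0.79) and 0.32 to 0.79 for Bcat1 over Bcat2. Without antibody replicate 5 and isotype replicate 10 the Gpt over Gpt2 difference was 0.44 and the log2 fold change of Gpt 0.23. No paired analysis was possible because the groups share no library numbers. Genes under 0.5 RPKM rest on few reads.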
